A study of Homo sapiens with 54 samples.

Results

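KRT5, KRT7, KRT8, KRT14, KRT15, KRT18, KRT19, CDH1, CDH2 and VIM are 10 genes used to tell luminal, basal and mesenchymal cells apart, and they were followed here through androgen withdrawal and enzalutamide treatment of LNCaP xenografts. They were taken by symbol, as 10 of the 60642 gene symbols measured. Of these 10, KRT7, KRT8, KRT14, KRT18, KRT19, CDH1 and VIM passed the expression filter (at least 1 TPM in at least 8 tumors), as 7 of the 17131 genes that did. KRT5, KRT15 and CDH2 did not pass and are described by their values. TPM measure relative abundance per transcript length, scaled to a fixed total, so levels can be set side by side between genes.

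Keratins are the intermediate filament proteins of epithelial cells and assemble as pairs of a type I and a type II chain, such as KRT18 with KRT8 in simple and luminal epithelium and KRT14 with KRT5 in basal epithelium. In the normal prostate the secretory luminal cells carry KRT8 and KRT18, and basal cells carry KRT5, KRT14 and KRT15. CDH1 (E-cadherin) joins epithelial cells at adherens junctions through the catenins, whereas CDH2 (N-cadherin) and VIM (vimentin, the intermediate filament protein of mesenchymal cells) are the markers most often read as epithelial-mesenchymal transition.

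The samples were 54 bulk tumors of LNCaP (clone FGC), an established line of human prostate cancer cells that respond to androgen, each grown under the skin of its own male NOD-SCID mouse a few weeks of age. PRE-CX tumors (n = 9) came from mice given mock surgery at about 200 mm3 and were collected at 1000 mm3. All other mice were castrated at about 200 mm3, and tumors were taken 1 week later at the lowest serum prostate-specific antigen (POST-CX, n = 8), or once the antigen was back at its level before castration or the tumor had reached 1000 mm3 (CRPC, n = 10). Enzalutamide, an antiandrogen drug, was given by gavage at 10 mg/kg on 5 days a week to castrated mice. It began when the antigen started to rise. Tumors were collected at the second antigen minimum (ENZS, n = 12). The others were taken once the antigen was back at its level before the drug or the tumor had reached 1000 mm3 despite treatment (ENZR, n = 15). All groups share 1 cell line and hosts without mature B and T cells. POST-CX tumors were taken 1 week after surgery at about 200 mm3, whereas PRE-CX tumors grew on to 1000 mm3. Castration, tumor size and growth time cannot be told apart between them. Bulk values cannot tell fewer cells of a type from less RNA per cell.

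Human genes took up 12.1% to 97.5% of the TPM of a tumor, and 2 tumors were under 50% (POST-CX mouse 91 at 27.9% and ENZR mouse 87 at 12.1%). A low human total lowers every human gene of that tumor by the same factor. Values are therefore given as deposited, and again after each tumor was rescaled to a human total of 1000000 TPM wherever that changed a call. Rescaling moved the median log2 difference of all tested genes from -0.05 to 0.16 for POST-CX minus PRE-CX, from 0.07 to 0.25 for ENZR minus PRE-CX, from 0.17 to -0.07 for CRPC minus POST-CX and from -0.37 to 0.03 for the difference between the relapse steps. Adjusted p-values are from limma, with Benjamini-Hochberg adjustment over the 17131 genes, and log2 differences are of log2(TPM + 1), which understates the change of genes near 1 TPM.

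The luminal keratins stayed the main keratins of these tumors in every group. KRT8 and KRT18 made up 80.6% to 94.4% of the summed keratin TPM of a tumor (median 89.9%, n = 54). In PRE-CX the TPM of KRT8 was 274.7 at the lowest, 394.8 at the median and 659.0 at the highest, and that of KRT18 was 312, 408.3 and 761.0. ENZS tumors, at 283.3, 322.5 and 452.1 TPM of KRT8, lay wholly inside the PRE-CX range, and at 303.3, 353.9 and 507.4 TPM of KRT18 all but 1 did. In ENZS 11 of 12 tumors were below the PRE-CX median for either gene. ENZS minus PRE-CX was -0.24 for KRT8 (SE 0.24, adjusted p = 0.451, rescaled 0.0966) and -0.24 for KRT18 (SE 0.24, adjusted p = 0.452, rescaled 0.0733). With each tumor centered on its median gene KRT8 fell by 0.49 (adjusted p = 3.17e-05) and KRT18 by 0.50 (adjusted p = 0.000169). The median log2 difference of all tested genes was 0.26 as deposited, and 27.1% of them were called lower after centering.

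KRT8 and KRT18 were lower in POST-CX than in PRE-CX in the rescaled values but not past the threshold in the deposited ones. POST-CX tumors had 88.7, 308.3 and 349.9 TPM of KRT8 and 94.2, 335.5 and 376.3 TPM of KRT18 (lowest, median, highest). The lowest value of both belonged to POST-CX mouse 91, the tumor with the low human total. As deposited, the log2 difference to PRE-CX was -0.64 for KRT8 (SE 0.27, limma adjusted p = 0.182) and -0.64 for KRT18 (SE 0.27, adjusted p = 0.186). Rescaled, it was -0.36 for KRT8 (SE 0.12, adjusted p = 0.0196) and -0.37 for KRT18 (SE 0.11, adjusted p = 0.0127).

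CRPC tumors had 197.4, 303.7 and 398.3 TPM of KRT8 and 232.6, 350.7 and 512.2 TPM of KRT18, with 3 of 10 below the PRE-CX range for either gene. In CRPC the rescaled difference to PRE-CX was -0.46 for KRT8 (SE 0.11, adjusted p = 0.00246) and -0.33 for KRT18 (SE 0.11, adjusted p = 0.0225), against adjusted p-values of 0.378 and 0.611 as deposited. ENZR tumors had 37.8, 299.1 and 413.6 TPM of KRT8 and 38.8, 325.8 and 395.3 TPM of KRT18. KRT18 fell in ENZR on either scale, by 0.62 on the log2 scale as deposited (SE 0.23, adjusted p = 0.0389) and by 0.37 rescaled (SE 0.10, adjusted p = 0.00117). The deposited call was lost without any 1 of 7 tumors, 6 of them PRE-CX, and most of all without PRE-CX mouse 112 (adjusted p = 0.109). KRT8 in ENZR differed by -0.56 as deposited (SE 0.23, adjusted p = 0.058) and fell by 0.32 rescaled (SE 0.10, adjusted p = 0.00784). The deposited value passed without any 1 of PRE-CX mouse 111, ENZR mouse 21 and ENZR mouse 33 (adjusted p = 0.0467, 0.0425 and 0.041).

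The partners of this pair moved together from tumor to tumor. KRT18 TPM were 0.938 to 1.49 times those of KRT8 (median 1.12), as a ratio per transcript length. On rescaled log2 values, Pearson's r of KRT8 and KRT18 was 0.848 in PRE-CX (n = 9, exact permutation p = 0.00446, adjusted p = 0.0223 over the 15 relations of 3 gene pairs in 5 groups), with Spearman's rho 0.900 (exact permutation p = 0.00203, adjusted p = 0.0183). It was 0.955 in CRPC (n = 10, permutation p = 5.0e-05, adjusted p = 0.00075; rho 0.830, permutation p = 0.00478, adjusted p = 0.0183), 0.833 in ENZS (n = 12, permutation p = 0.00199, adjusted p = 0.0149; rho 0.692, permutation p = 0.0156, adjusted p = 0.0390) and 0.670 in ENZR (n = 15, permutation p = 0.00655, adjusted p = 0.0246; rho 0.714, permutation p = 0.0039, adjusted p = 0.0183). In POST-CX r was 0.759 (n = 8, exact permutation p = 0.0315, adjusted p = 0.0669) with rho 0.619 (exact permutation p = 0.115, adjusted p = 0.192). Without the 2 tumors farthest from the median of KRT8, r was 0.773 in PRE-CX, 0.828 in POST-CX, 0.905 in CRPC, 0.441 in ENZS and 0.760 in ENZR. The drop in r was largest in ENZS, where r stayed positive. Both genes have many processed pseudogene copies, whose symbols took 3.35% to 6.60% of the summed TPM of KRT8 with its copies and 0.611% to 1.43% for KRT18, and adding them changed no call of either gene.

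**Figure D1:**
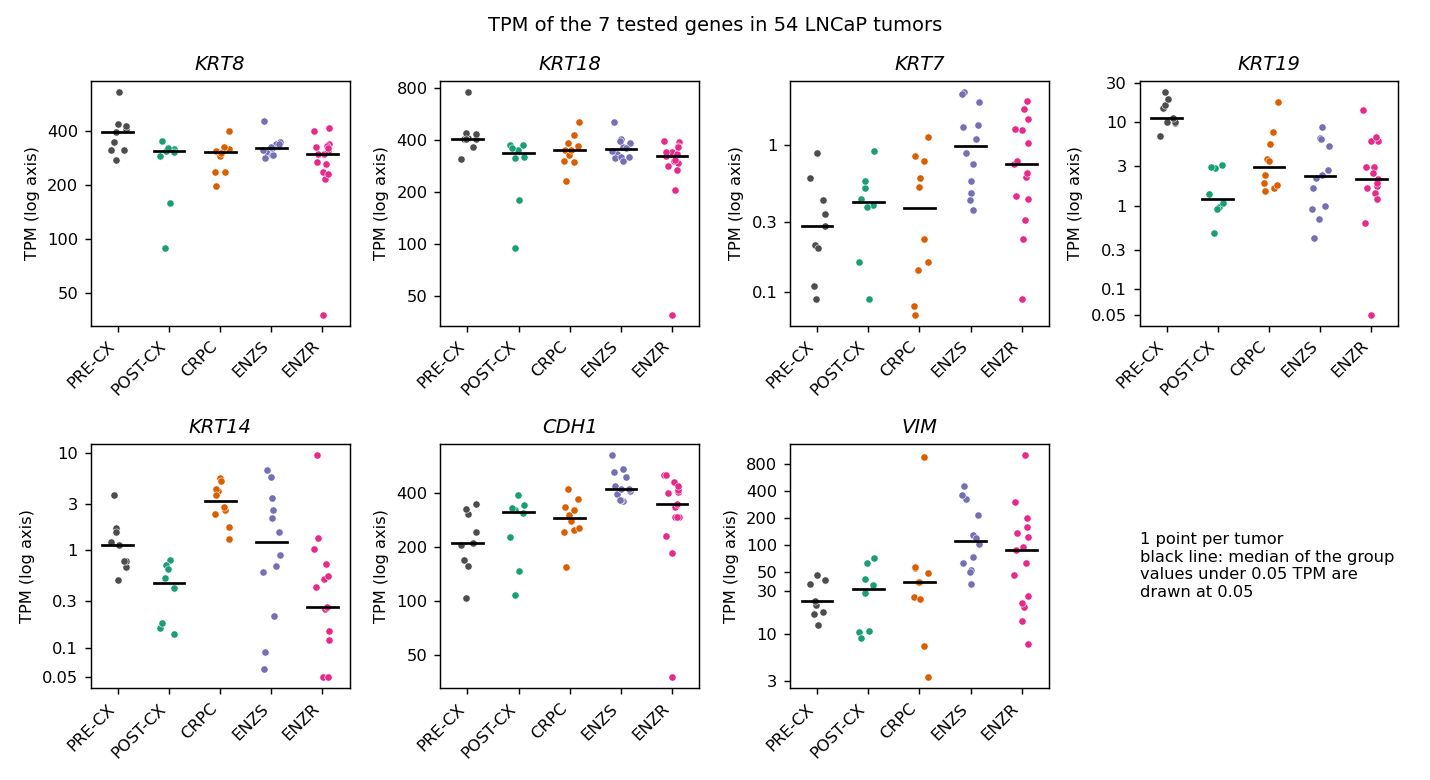
TPM on a log axis of the 7 tested genes in each of the 54 tumors by group (1 point per tumor, black line at the median of the group, values under 0.05 TPM drawn at 0.05). KRT8 and KRT18 overlap between all groups, all POST-CX tumors lie below all PRE-CX tumors for KRT19, all ENZS tumors lie above all PRE-CX tumors for CDH1, and CRPC mouse 102 and ENZR mouse 100 stand highest for VIM at 954.1 and 1018 TPM.

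KRT19, a type I keratin of simple and ductal epithelium, was lower in every castrated group than in PRE-CX. PRE-CX tumors had 6.91, 11.3 and 23.1 TPM (lowest, median, highest; mean 13.5 ± 5.18, SD, n = 9), and POST-CX tumors had 0.47, 1.23 and 3.08 TPM (mean 1.71 ± 1.06, n = 8). All 8 POST-CX tumors lay below the lowest PRE-CX tumor; 1.17% of all tested genes had groups that did not overlap in this direction. The log2 difference was -2.43 (SE 0.39, adjusted p = 1.09e-05).

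CRPC tumors had 1.52, 2.9 and 17.8 TPM of KRT19, ENZS tumors 0.41, 2.26 and 8.80 TPM, and ENZR tumors 0, 2.11 and 14.0 TPM. In CRPC 8 of 10, in ENZS 11 of 12 and in ENZR 14 of 15 tumors lay below the lowest PRE-CX tumor. The differences to PRE-CX were -1.58 in CRPC (SE 0.37, adjusted p = 0.00285), -1.98 in ENZS (SE 0.35, adjusted p = 8.55e-06) and -1.95 in ENZR (SE 0.34, adjusted p = 8.89e-06). These 4 comparisons share the same 9 PRE-CX tumors. By median the order was PRE-CX, CRPC, ENZS, ENZR and POST-CX, and the castrated groups overlapped one another: CRPC minus POST-CX was 0.85 (SE 0.38, adjusted p = 0.709), ENZS minus CRPC was -0.39 (SE 0.34, adjusted p = 0.527) and ENZR minus ENZS was 0.02 (SE 0.31, rescaled adjusted p = 0.980). KRT19 was called in all 4 comparisons with PRE-CX on either scale and without any single tumor.

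KRT7, a type II keratin of ductal and transitional epithelium, was near the limit of detection throughout, at 0.07 to 2.30 TPM. PRE-CX tumors had 0.09, 0.28 and 0.88 TPM, POST-CX tumors 0.09, 0.41 and 0.91 TPM, CRPC tumors 0.07, 0.375 and 1.13 TPM, ENZS tumors 0.36, 0.99 and 2.30 TPM, and ENZR tumors 0.09, 0.75 and 2.01 TPM. Of the 13 tumors at 1 TPM or more, 6 were ENZS, 6 ENZR and 1 CRPC, so the gene passed the filter through the groups in which it was high. The log2 difference to PRE-CX was 0.62 in ENZS (SE 0.17, adjusted p = 0.00257) and 0.44 in ENZR (SE 0.16, adjusted p = 0.0348), and ENZS minus CRPC was 0.53 (SE 0.16, adjusted p = 0.0296). The ENZR call was lost without any 1 of 9 tumors (adjusted p up to 0.0696, without PRE-CX mouse 62) and the call against CRPC without any 1 of 7 (up to 0.0691, without ENZS mouse 80). All 3 calls were lost when each tumor was centered on its median gene (adjusted p = 0.238, 0.203 and 0.272).

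The relation of KRT7 to KRT19 differed in sign between groups, and no r passed after adjustment. On rescaled log2 values r was -0.672 in PRE-CX (n = 9, exact permutation p = 0.0473; rho -0.767, exact permutation p = 0.0214), -0.089 in POST-CX (n = 8, exact permutation p = 0.856), 0.652 in CRPC (n = 10, permutation p = 0.0358), -0.382 in ENZS (n = 12, permutation p = 0.219) and -0.606 in ENZR (n = 15, permutation p = 0.0207), with adjusted p-values of 0.0621 to 0.856. Spearman's rho was 0.262 in POST-CX (exact permutation p = 0.536), 0.370 in CRPC (permutation p = 0.297), -0.357 in ENZS (permutation p = 0.256) and -0.457 in ENZR (permutation p = 0.0896), and its adjusted p was 0.0458 in PRE-CX and 0.168 to 0.538 in the other groups. Without the 2 tumors farthest from the median of KRT7, r was -0.701 in PRE-CX, 0.621 in POST-CX, 0.844 in CRPC, 0.01 in ENZS and -0.265 in ENZR.

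The basal keratins KRT5 and KRT15 were close to absent. KRT5 reached at most 0.13 TPM and was listed at 0 in 6 of 9 PRE-CX and 7 of 8 POST-CX tumors and in all 37 CRPC, ENZS and ENZR tumors. KRT15 was above 0 in all 9 PRE-CX tumors, at 0.05 to 0.65 TPM (median 0.25), and was listed at 0 in 4 of 8 POST-CX, 7 of 10 CRPC, 6 of 12 ENZS and 7 of 15 ENZR tumors, none of which exceeded 0.47 TPM. When genes were not filtered, KRT15 differed from PRE-CX by -0.34 in POST-CX (SE 0.08, limma adjusted p = 0.00878), by -0.33 in CRPC (SE 0.07, adjusted p = 0.00417) by -0.27 in ENZS (SE 0.07, adjusted p = 0.00457) and by -0.32 in ENZR (SE 0.07, adjusted p = 0.000685), all over less than 1 TPM. KRT5 differed by -0.04 in ENZS (SE 0.01, adjusted p = 0.00836) and by -0.04 in ENZR (SE 0.01, adjusted p = 0.0084) in the same fit, from levels that never exceeded 0.13 TPM.

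KRT14, the basal type I keratin and the usual partner of KRT5, was the most abundant of the 3 basal keratins among the members, and its median moved in opposite directions in the 2 relapses. PRE-CX tumors had 0.49, 1.14 and 3.67 TPM, POST-CX tumors 0.14, 0.465 and 0.80 TPM, CRPC tumors 1.3, 3.23 and 5.45 TPM, ENZS tumors 0.06, 1.21 and 6.66 TPM, and ENZR tumors 0, 0.26 and 9.50 TPM. CRPC stood above POST-CX, while 4 of 15 ENZR tumors lay below the ENZS range and ENZR mouse 104 held the highest value of all tumors. All 10 CRPC tumors lay above all 8 POST-CX tumors as deposited; 0.146% of all tested genes did so, and rescaled the groups overlapped.

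The difference between the relapse steps, (ENZR minus ENZS) minus (CRPC minus POST-CX), was -2.20 for KRT14 (SE 0.42, adjusted p = 0.00776) and -2.14 rescaled (SE 0.45, adjusted p = 0.0259). KRT14 was the 1 member called, lower, where 0.187% of all tested genes were called as deposited and 0.105% rescaled. The adjusted p was 0.0514 when genes were not filtered, and at most 0.0275 under the other alternatives. The single steps did not pass: CRPC minus POST-CX was 1.53 (SE 0.32, adjusted p = 0.0602, rescaled 0.0774, and 6.96e-05 when the fit held these 2 groups alone) and ENZR minus ENZS was -0.67 (SE 0.26, adjusted p = 0.362). Against PRE-CX, KRT14 in CRPC was 0.90 higher as deposited (SE 0.31, adjusted p = 0.0629) and rose by 0.92 rescaled (SE 0.34, adjusted p = 0.0453); without PRE-CX mouse 58 or CRPC mouse 81 the deposited value passed too (adjusted p = 0.0314 and 0.0349). ENZR minus PRE-CX was -0.52 (SE 0.29, adjusted p = 0.171), and KRT14 fell by 0.72 without ENZR mouse 104 (adjusted p = 0.0204).

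Of the cadherins, CDH1 was abundant and CDH2 practically absent in all groups. CDH2 reached at most 0.11 TPM and was listed at 0 in all 9 PRE-CX, 7 of 8 POST-CX, 8 of 10 CRPC, 9 of 12 ENZS and 8 of 15 ENZR tumors. CDH1 had 104.5, 212.1 and 350.9 TPM in PRE-CX, 108.4, 316.8 and 394.0 TPM in POST-CX, 155.0, 290.5 and 423.0 TPM in CRPC, 362.2, 422.1 and 657.2 TPM in ENZS, and 37.6, 348.6 and 508.0 TPM in ENZR. All 12 ENZS tumors lay above all 9 PRE-CX tumors; 7.53% of all tested genes had groups that did not overlap in this direction. The lowest ENZR value was that of mouse 87, the tumor with 12.1% human TPM.

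The mean of CDH1 was 231.4 ± 83.7 TPM in PRE-CX (SD, n = 9) and 451.3 ± 89.4 TPM in ENZS (n = 12). The log2 difference of ENZS to PRE-CX for CDH1 was 1.03, a rise with an SE of 0.27 and a limma adjusted p of 0.00213. In ENZR the difference to PRE-CX was 0.49 as deposited (SE 0.26, adjusted p = 0.160), 0.73 rescaled (SE 0.18, adjusted p = 0.000431) and 0.70 as deposited without ENZR mouse 87 (adjusted p = 0.00253). ENZS minus CRPC was 0.64 as deposited (SE 0.27, adjusted p = 0.124) and 0.72 rescaled (SE 0.18, adjusted p = 0.00191). In POST-CX and CRPC the differences to PRE-CX of 0.22 (SE 0.30, adjusted p = 0.759) and 0.39 (SE 0.29, adjusted p = 0.507) did not pass on either scale. ENZR minus ENZS was -0.54 (SE 0.24, adjusted p = 0.410), and 8 of 15 ENZR tumors lay below the lowest ENZS tumor.

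VIM rose in the same ENZS tumors. It had 12.5, 23.3 and 46.1 TPM in PRE-CX, 8.95, 32.0 and 71.2 TPM in POST-CX, 3.27, 38.5 and 954.1 TPM in CRPC, 36.2, 111.5 and 455.6 TPM in ENZS, and 7.80, 87.0 and 1018 TPM in ENZR. In ENZS 11 of 12 tumors were above the highest PRE-CX tumor, in ENZR 9 of 15 and in CRPC 4 of 10. The log2 difference of ENZS to PRE-CX was 2.16 (SE 0.62, adjusted p = 0.00417), wider in its error than that of CDH1.

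ENZR minus PRE-CX for VIM was 1.42 as deposited (SE 0.59, adjusted p = 0.0616) and 1.67 rescaled (SE 0.62, adjusted p = 0.0192), and it passed as deposited without any 1 of 5 ENZR tumors. ENZS minus CRPC was 1.67 as deposited (SE 0.60, adjusted p = 0.068), 1.75 rescaled (SE 0.63, adjusted p = 0.0258) 2.19 without CRPC mouse 102 (adjusted p = 0.00946) and 1.82 without ENZS mouse 45 (adjusted p = 0.0445). POST-CX and CRPC differed from PRE-CX by 0.01 (SE 0.68, adjusted p = 0.997) and 0.49 (SE 0.64, adjusted p = 0.776). The highest tumors, ENZR mouse 100 and CRPC mouse 102, had human totals of 93.8% and 93.7%, and VIM there was 345.1% and 295.9% of the TPM of CDH1. At the other end, CRPC mouse 81 had the lowest VIM of all tumors together with the highest KRT19, KRT18, KRT8 and KRT7 of its group.

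Vimentin is also a protein of fibroblasts, endothelium and white blood cells, which in these tumors belong to the mouse. The summed TPM of 25 human stroma and blood genes was 20.7, 27.2 and 34.5 in PRE-CX, 13.7, 31.4 and 40.6 in POST-CX, 28.6, 36.6 and 105.1 in CRPC, 38.9, 70.1 and 284.0 in ENZS, and 13.6, 72.7 and 97.1 in ENZR. Of these, 9 genes were tested. In ENZS 7 were higher than in PRE-CX and 1 (VWF) was lower, beside 30.3% and 8.18% of all genes. Among the higher ones were the collagen COL3A1 (log2 difference 2.89, SE 0.42, adjusted p = 1.98e-07) and the matrix proteoglycan LUM (2.92, SE 0.59, adjusted p = 7.3e-05). Of the 9 PRE-CX tumors 0 reached 1 TPM for DCN, 1 for LUM, 2 for CD68 and 2 for COL3A1. In ENZS 9, 12, 10 and 12 of 12 tumors did, so these genes passed the filter wholly or mainly through tumors outside PRE-CX. The list was uneven in level. Its highest values were 110.0 TPM for LUM, 58.9 TPM for COL3A1, 34.7 TPM for the proteoglycan gene DCN, 26.1 TPM for the collagen gene COL1A1 and 10.2 TPM for the macrophage gene CD68, whereas the collagen gene COL1A2 reached at most 0.78 TPM, the endothelial gene PECAM1 0.06, the leukocyte gene PTPRC 0.19 and the fibroblast receptor gene PDGFRA 0.11. ENZS mouse 17, with the highest VIM of its group, had the lowest deposited sum of that group at 38.9, though not the lowest rescaled one (54.9, with mouse 101 at 45.5 and mouse 45 at 50.9), and ENZR mouse 100 had a sum of 91.2. The part of these genes, or of the host, in the VIM values was not tested.

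**Figure D2:**
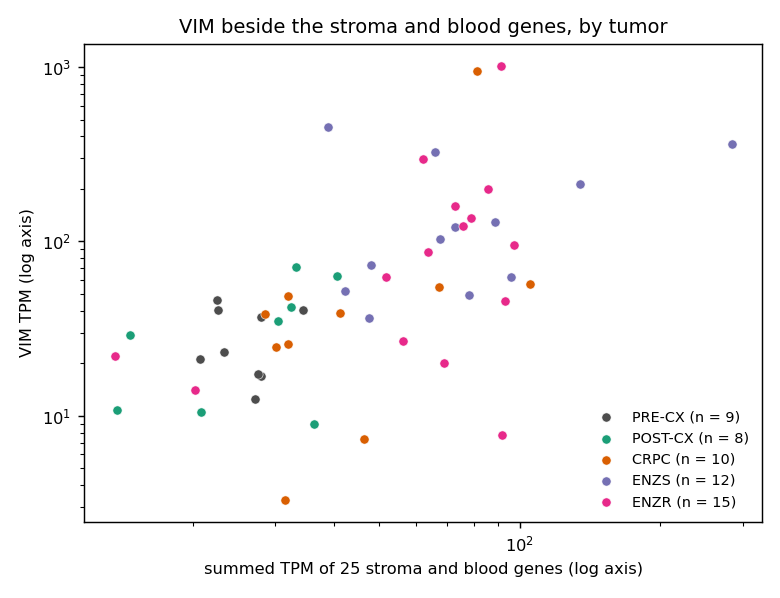
VIM TPM against the summed TPM of 25 stroma and blood genes, both on log axes, with 1 point per tumor colored by group. Both are higher in most ENZS and ENZR tumors than in PRE-CX, and the highest VIM values, 1018 TPM in ENZR mouse 100 and 954.1 TPM in CRPC mouse 102, stand at sums of 91.2 and 80.9 TPM.

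The region before the VIM start is shown because, of KRT19, CDH1 and VIM, the members set for printing, only VIM had an upstream window. Upstream windows were at hand for KRT5, KRT8, CDH2 and VIM, 4 of the 10 members, and not for KRT7, KRT14, KRT15, KRT18, KRT19 and CDH1. KRT8, KRT18, KRT7 and KRT5 lie together on chromosome 12, KRT19, KRT14 and KRT15 on chromosome 17 and CDH1 on chromosome 16. VIM lies on chromosome 10 of GRCh38.p14 at chr10:17228241-17237593 on the plus strand, and the 250 bases before its RefSeq start (chr10:17227991-17228240, plus strand) read as follows, with capitals for the only match found.
VIM: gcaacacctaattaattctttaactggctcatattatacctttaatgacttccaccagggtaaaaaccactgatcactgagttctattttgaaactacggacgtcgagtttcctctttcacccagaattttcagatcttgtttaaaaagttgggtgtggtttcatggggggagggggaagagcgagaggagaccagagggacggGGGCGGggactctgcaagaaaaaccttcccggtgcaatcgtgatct
Short motifs were searched for on both strands. The GC box GGGCGG began 46 bases before the start and is found in 42.6% of the 35116 RefSeq windows of this length. The E-box CAGGTG, which SNAI and ZEB family repressors bind (17.5% of windows), the steroid receptor half-site AGAACA (12.4%) and the TATA box TATAAA (10.7%) had no match in these letters.

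CDH1 and VIM were not opposed within groups. On rescaled log2 values their r was 0.589 in PRE-CX (n = 9, exact permutation p = 0.0950, adjusted p = 0.129; rho 0.550, exact permutation p = 0.133), 0.731 in POST-CX (n = 8, exact permutation p = 0.0402, adjusted p = 0.0669; rho 0.857, exact permutation p = 0.0107), 0.174 in CRPC (n = 10, permutation p = 0.608, adjusted p = 0.651; rho 0.224, permutation p = 0.538), 0.635 in ENZS (n = 12, permutation p = 0.0262, adjusted p = 0.0654; rho 0.769, permutation p = 0.00487) and 0.277 in ENZR (n = 15, permutation p = 0.317, adjusted p = 0.366; rho 0.243, permutation p = 0.382). Adjusted over the 15 relations, no r of this pair passed, and rho did in POST-CX (adjusted p = 0.0321) and ENZS (adjusted p = 0.0183) but not in PRE-CX (0.199), CRPC (0.538) or ENZR (0.441). Without the 2 tumors farthest from the median of CDH1, r was 0.544 in PRE-CX, 0.659 in POST-CX, 0.507 in CRPC, 0.345 in ENZS and 0.04 in ENZR. CDH1 was above VIM in all but 3 tumors (ENZR mouse 100, CRPC mouse 102 and ENZS mouse 17), with a median of VIM at 15.5% of CDH1 TPM over the 54 tumors.

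**Figure D3:**
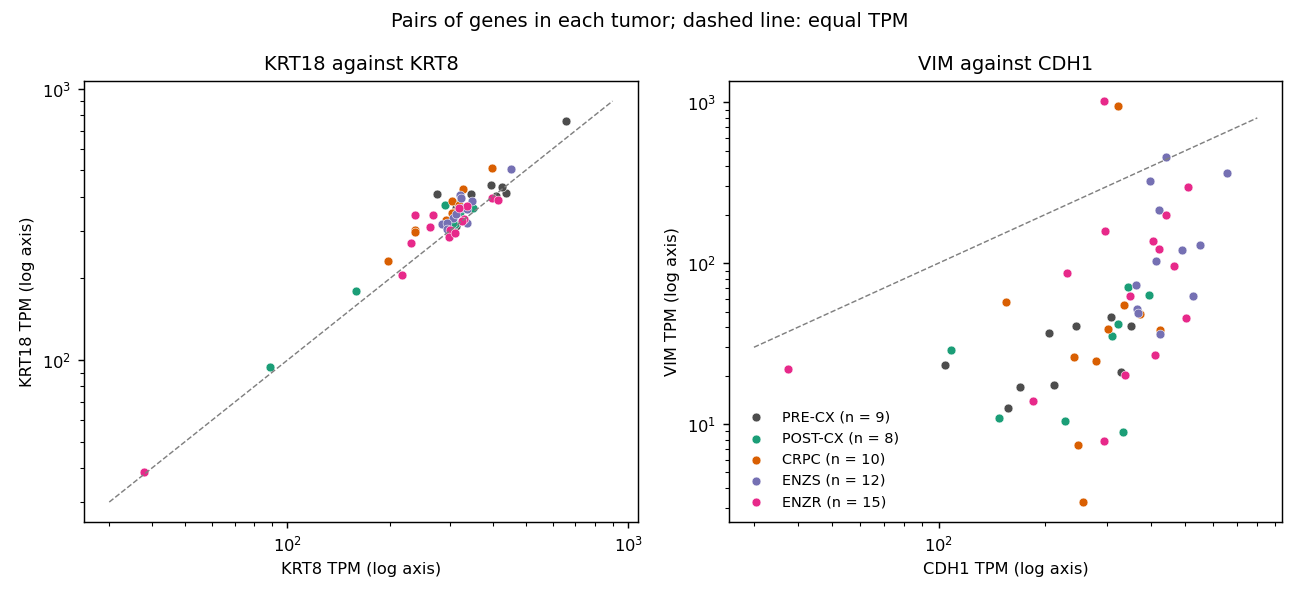
TPM of KRT18 against KRT8 (left) and of VIM against CDH1 (right) on log axes, 1 point per tumor colored by group, with a dashed line where both are equal. KRT18 keeps close to KRT8 in every tumor (ratio 0.938 to 1.49), whereas VIM spans from 3.27 to 1018 TPM where CDH1 spans from 37.6 to 657.2 TPM.

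Counted by comparison, the members' calls are given beside the share of all tested genes called in the same direction. In POST-CX minus PRE-CX 0 of 7 members were higher (1.66% of all genes) and 1, KRT19, was lower (2.67%); rescaled, KRT19, KRT8 and KRT18 were lower, 3 of 7 beside 5.73% of all genes. The unadjusted p of these 3 was under 0.05 as deposited as well, a threshold at which the share of all genes was not counted. In CRPC minus PRE-CX limma called 0 higher (5.55%), though KRT14 had an unadjusted p under 0.05, and KRT19 was lower (1.87%); rescaled, KRT14 was higher (14.5%) and KRT19, KRT8 and KRT18 were lower (5.94%). In ENZS minus PRE-CX 3 of 7, CDH1, VIM and KRT7, were higher (30.3%) and KRT19 was lower (8.18%), with the same 4 calls rescaled (47.8% higher, 13.8% lower). In ENZR minus PRE-CX KRT7 was higher (17.6%) and KRT19 and KRT18 were lower (11.5%); rescaled, CDH1, VIM and KRT7 were higher (44.8%) and KRT19, KRT18 and KRT8 were lower (14%). With 3 of 7 members higher in ENZS beside 30.3% of all genes, the count is no result about the members as a set, and KRT7 had passed the filter through ENZS and ENZR.

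In ENZS minus CRPC KRT7 was higher as deposited (6.21%) and CDH1, VIM and KRT7 were higher rescaled (31.7%), with 0 members lower by limma (2.71% of all genes as deposited). KRT14 was at -0.75 (SE 0.29, adjusted p = 0.094), with an unadjusted p under 0.05, and fell without ENZS mouse 6 or 106 (adjusted p = 0.0355 and 0.0408). In CRPC minus POST-CX limma called 0 of 7 members and 0 of all 17131 genes (8 lower when rescaled). KRT19 and KRT14 had an unadjusted p under 0.05, a threshold at which the share of all genes was not counted. In ENZR minus ENZS limma called 0 of 7 members, where 0.0175% of all genes were lower. There the unadjusted p was under 0.05 for KRT14 and CDH1, again without a share of all genes at that threshold. The median log2 difference over the 7 tested members was -0.63 in POST-CX, 0.09 in CRPC, 0.15 in ENZS and -0.52 in ENZR minus PRE-CX, beside -0.05, 0.11, 0.26 and 0.07 over all tested genes.

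**Figure D4:**
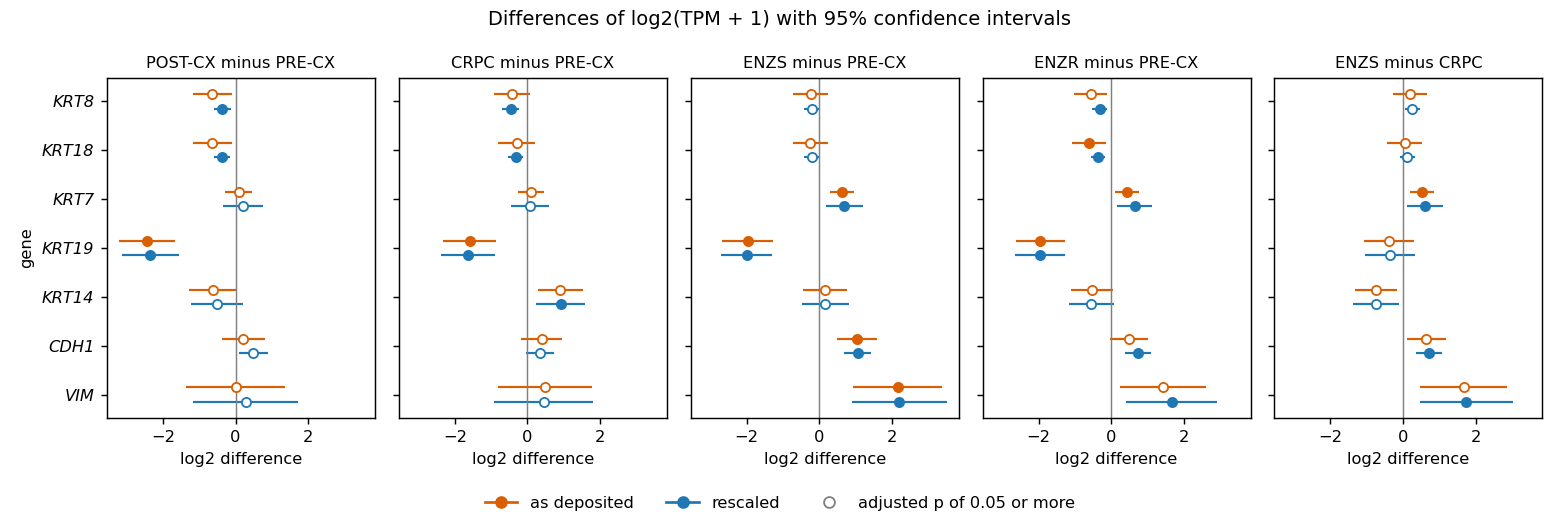
Differences of log2(TPM + 1) between groups for the 7 tested genes with 95% confidence intervals from limma, as deposited (orange) and rescaled (blue), filled where the adjusted p is under 0.05. KRT19 is lower than PRE-CX in all 4 groups on both scales, and the intervals of KRT8, KRT18 and CDH1 narrow after rescaling.

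The other genes of these families and states were described from lists chosen by function. KRT6C, CDHR1, CELSR2, CDH19, CTNNB1, CTNND1, LOXL2, SNAI1, SNAI2, ZEB1, ZEB2, TWIST2, STEAP2, GATA2, KLK2, TMPRSS2, ITGB4, CLDN8, PERP, PKP3, CTNNA1, JUP, KRT10, KRT75, KRT80, KRT6A, KRT6B, KRT16 and KRT17, and beside VIM the genes VWF, DCN, COL1A1, COL1A2, CD68, PECAM1, PTPRC and PDGFRA, were named after their values were seen. Of 47 other keratin genes only KRT10, KRT6C, KRT75 and KRT80 passed the filter, and KRT10, a keratin of differentiating squamous epithelium, led them at a median of 53.8 TPM in PRE-CX and 77.7 TPM in ENZS. KRT6C, an epidermal keratin, fell in ENZS by 1.63 on the log2 scale (SE 0.18, adjusted p = 5.28e-10), from a median of 2.17 TPM to 0.115 TPM. It passed the filter through 8 PRE-CX tumors and no other tumor, so it had to differ. Of 17 tested genes of other intermediate filaments and their linker proteins 8 rose and 2 fell in ENZS over PRE-CX, beside 30.3% and 8.18% of all genes. The neurofilament gene NEFL rose by 1.95 (SE 0.32, adjusted p = 1.64e-06) and the synemin gene SYNM, whose product pairs with vimentin in filaments, by 1.3 (SE 0.22, adjusted p = 4.28e-06). The nuclear lamins LMNB1 and LMNB2 fell by 2.91 (SE 0.44, adjusted p = 3.27e-07) and 0.61 (SE 0.24, adjusted p = 0.0405). The median over this list was 0.53.

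Of 10 tested genes among the other cadherins 5 rose in ENZS over PRE-CX (median 0.51), beside 30.3% of all genes, namely CDHR1, CELSR1, FAT1, CELSR2 and CDH19. CDH19 passed the filter through 2 ENZS and 6 ENZR tumors alone. CDHR1 passed it through 2 POST-CX, 4 CRPC, 10 ENZS and 11 ENZR tumors and no PRE-CX tumor. The planar polarity cadherin CELSR1 rose by 1.33 (SE 0.26, adjusted p = 4.91e-05) and the atypical cadherin FAT1 by 1.06 (SE 0.28, adjusted p = 0.00167). In ENZR 4 of these 10 were higher, CDHR1, CDH19, CELSR1 and CELSR2, beside 17.6% of all genes. Of the 34 tested epithelial junction genes and repressors of transition, 8 rose and 1 fell in ENZS as deposited (median 0.34; 30.3% and 8.18% of all genes), 17 rose and 4 fell rescaled (47.8% and 13.8%), and 9 rose and 8 fell with each tumor centered on its median gene (26% and 27.1%). The list also holds genes of neither kind, among them CDS1, which rose by 1.22 (SE 0.24, adjusted p = 4.57e-05). GRHL2, a transcription factor that maintains the epithelial state, rose by 0.83 (SE 0.25, adjusted p = 0.00678). Of the catenins, the binding partners of cadherins, beta-catenin (CTNNB1) and p120-catenin (CTNND1) rose by 0.66 (SE 0.23, adjusted p = 0.017) and 0.58 (SE 0.24, adjusted p = 0.0461), while alpha-catenin (CTNNA1) at 0.56 (SE 0.23, adjusted p = 0.0517) and plakoglobin (JUP) at 0.46 (SE 0.25, adjusted p = 0.148) did not pass as deposited and did rescaled (adjusted p = 6.78e-05 and 0.00295). ESRP2, an epithelial splicing regulator, fell by 0.71 (SE 0.24, adjusted p = 0.0159). In ENZR the deposited calls were 0 higher and 4 lower ones, CLDN8, PERP, ESRP2 and PKP3, beside 17.6% and 11.5% of all genes. Rescaled, 15 of the 34 were higher and 4 lower, shares close to the 44.8% and 14% of all genes.

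Of 8 tested genes of the mesenchymal and transition list, 3 rose and 2 fell in ENZS over PRE-CX (median 0.36), beside 30.3% and 8.18% of all genes. The rises were FN1, LOXL2 and ITGA5, and the falls SNAI2 and TWIST1. With the rises near the share of all genes, their count is no result about the list. LOXL2 reached 1 TPM in 2 PRE-CX and 11 ENZS tumors. Fibronectin (FN1) rose by 2.59 (SE 0.40, adjusted p = 4.77e-07), from 7.56, 20.4 and 51.2 TPM in PRE-CX to 32.4, 153.95 and 429.8 TPM in ENZS (lowest, median, highest). The fibronectin receptor subunit ITGA5 rose by 0.73 (SE 0.22, adjusted p = 0.00545). The transcription factor TWIST1, an inducer of transition, fell by 1.47 (SE 0.32, adjusted p = 0.000223), and SNAI2, another inducer, by 1.89 (SE 0.17, adjusted p = 1.52e-13), from a median of 2.73 TPM to 0.145 TPM. Of the 12 tumors with SNAI2 at 1 TPM or more 9 were PRE-CX, 1 POST-CX and 2 CRPC, so it passed the filter mainly through the group in which it was high. The inducers ZEB1, ZEB2, TWIST2 and SNAI1 did not pass the filter and reached at most 0.65, 0.12, 0.06 and 0.97 TPM. The stroma and blood sums given beside VIM were also higher at the median in ENZS than in PRE-CX, and their part in FN1 was not tested.

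The luminal list holds androgen-induced genes. In ENZS 4 of its 15 tested genes rose and 5 fell as deposited (median 0.47), beside 30.3% and 8.18% of all genes. Rescaled, 7 rose and 6 fell, beside 47.8% and 13.8%. The rises were near the share of all genes, so their count is no result about the list. FOLH1 rose by 1.61 (SE 0.27, adjusted p = 2.62e-06), as did STEAP2 and GATA2, while SLC45A3 fell by 3.45 (SE 0.45, adjusted p = 1.42e-08) and DPP4 by 3.17 (SE 0.35, adjusted p = 2.42e-10), as did KLK2 and TMPRSS2. Of 19 basal genes besides the members, 6 were tested. The keratins among the 19 did not pass the filter: KRT6A, KRT6B and KRT16 reached 3.64, 4.14 and 2.29 TPM, each in a PRE-CX tumor, and KRT17 reached 13.99 TPM in 1 ENZS tumor at a median of 0.055 TPM in that group. LAMA3, a laminin chain, fell by 1.53 (SE 0.45, adjusted p = 0.00561) and its receptor subunit ITGB4 rose by 0.71 (SE 0.23, adjusted p = 0.0103). These were the only calls in ENZS among the 6 as deposited, beside 30.3% of all genes higher and 8.18% lower. Rescaled, 2 rose and 1 fell (47.8% and 13.8%). With each tumor centered on its median gene 0 rose and 1 fell (26% and 27.1%).

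**Figure D5:**
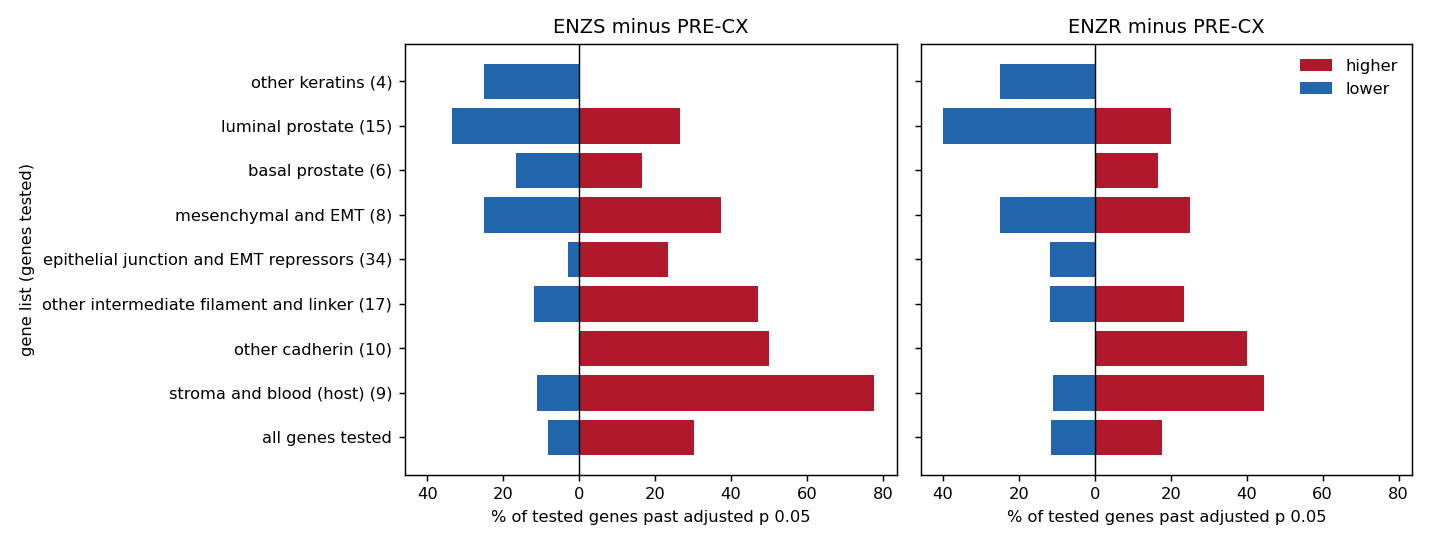
Percent of the tested genes of each list that passed an adjusted p of 0.05, higher (red, to the right) or lower (blue, to the left), in ENZS and in ENZR minus PRE-CX as deposited, with the number tested in brackets and all 17131 genes at the bottom. In ENZS the stroma and blood list has the highest share of rises (7 of 9 genes), and the luminal list the highest share of falls (5 of 15 genes). Among those 7 rises, DCN, LUM, CD68 and COL3A1 passed the filter wholly or mainly through tumors outside PRE-CX.

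The genes most like each member were ranked by Pearson's r of rescaled log2 values over the 54 tumors, which includes the differences between groups. For CDH1 they were PTPRF (r = 0.907), RXRA (0.906) and ARHGAP35 (0.903), and for VIM the antisense gene VIM-AS1 (0.914), SYDE2 (0.737) and PTPRK (0.734). VIM-AS1 overlaps VIM on the opposite strand, and its reads cannot be told from those of VIM unless the counting used strand. For KRT19 they were MTFP1 (0.818), AK4 (0.794) and TLCD3A (0.787), and for KRT7 LCN2 (0.876), TNFRSF21 (0.839) and LAMB3 (0.829). KRT14 was most like LINC00844 (0.806), SEC22C (0.681) and AL034374.1 (0.675). KRT8 and KRT18 were each other's nearest gene (0.839), followed by CORO1B (0.806) for KRT8 and by SPDEF (0.769) and the KRT8 pseudogene KRT8P3 (0.756) for KRT18.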

How the data were processed

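RNA of 54 LNCaP xenograft tumors was sequenced from strand-specific, polyA-selected paired-end libraries. The authors trimmed the reads (FastQC 0.11.9, Trim Galore 0.6.5, per the submitters' processing notes), aligned them with STAR 2.7.2b to a combined human (GRCh38) and mouse (GRCm38) reference, quantified them with RSEM 1.3.3 and deposited TPM per human gene symbol, 1 column a tumor. Mouse reads that align to human genes stay in these values, and mouse genes take up the rest of each total. Read counts were not used here, so the depth behind a value is unknown and no counting intervals are given. The number of genes at 1 TPM or more was 9693 to 16313 a tumor.

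Symbols at 1 TPM or more in at least 8 tumors (17131) were tested on log2(TPM + 1) with limma 3.58.1 (R 4.3.3), in 1 fit of 5 group means with a mean-variance trend, and p-values were adjusted by the Benjamini-Hochberg method within each comparison. The labels name no batch, and each tumor came from its own mouse. Alternatives were rescaling each tumor to a human total of 1000000 TPM, centering on the median gene, a pseudocount of 0.1, no filter, a filter at 5 TPM, leaving out tumors under 50% human TPM, fitting only the groups compared, adding pseudogenes to KRT8 and KRT18, and leaving out each tumor in turn. Correlations were two-sided permutation tests within groups on rescaled values, exact under 10 tumors and otherwise of 100000 resamples (scipy 1.17.1); the pair CDH1 and CDH2 was left out because CDH2 did not pass the filter. The scripts were tested on simulated data. Named genes were the members, the 3 genes most correlated with each tested member, and from each list up to 2 genes with the largest rise and up to 2 with the largest fall in ENZS minus PRE-CX at a mean of at least 5 TPM. Other genes were named after their values were seen, as said beside them. Some genes that this rule names are not reported here. The members and lists were chosen with earlier results of these data known. Positions and the printed sequence are from RefSeq on GRCh38.p14.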

Additional observations from a re-analysis of the deposited data

Results flagged for a closer look

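Among 21 sets of 1 gene in 1 group of 8 to 10 tumors, 2 had a tumor that stood apart from the others by Dixon's test on log2(TPM + 1) at the 95% level, a test that marks about 5% of sets by chance. KRT18 in PRE-CX mouse 112 was 761.0 TPM (760.97), the highest of 9 tumors, with a gap to the next that took 0.611 of the log2 range of the group. The deposited call of KRT18 in ENZR was lost without this tumor. VIM in CRPC mouse 102 was 954.1 TPM (954.11), the highest of 10 tumors, with a gap of 0.518 of the log2 range of the group.

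The change of KRT14 from response to relapse differed between castration and enzalutamide, by a test of the difference itself, with a log2 value of -2.20 (SE 0.42, limma adjusted p = 0.00776). All 10 CRPC tumors were above all 8 POST-CX tumors as deposited, where 0.146% of all tested genes did so, and the values of ENZR and ENZS overlapped.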

How the results depend on the processing

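Over the members' log2 differences, 373 values under the alternatives kept direction and side of the threshold, 48 passed where the deposited fit did not, 8 no longer passed and 19 changed sign. None of those 19 had passed in the deposited fit. KRT19 kept its 4 calls against PRE-CX throughout. Leaving out single tumors, the members called were 1 to 1 in POST-CX minus PRE-CX, 1 to 2 in CRPC minus PRE-CX, 4 to 4 in ENZS minus PRE-CX, 1 to 5 in ENZR minus PRE-CX, 0 to 0 in CRPC minus POST-CX, 0 to 2 in ENZS minus CRPC, 0 to 0 in ENZR minus ENZS and 1 to 1 in the relapse step difference.

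Members called in POST-CX minus PRE-CX went from 1 to 3 when rescaled, median-centered, without the low-total tumors or both rescaled and without them, and to 2 with no filter or only the groups compared. In CRPC minus PRE-CX they went from 1 to 4 (rescaled, with or without the low-total tumors), 3 (median-centered, without low-total tumors, groups alone) and 2 (no filter). In ENZS minus PRE-CX they went from 4 to 5 (median-centered), 6 (no filter) and 3 (5 TPM filter). Centering lost KRT7 there and added KRT8 and KRT18 as lower. In ENZR minus PRE-CX the count went from 3 to 6 (rescaled, without low-total tumors, both) and 1 (groups alone). It was 4 there when median-centered or at a pseudocount of 0.1, and 2 with the 5 TPM filter. CRPC minus POST-CX went from 0 to 1, KRT14, with both changes or the groups alone. ENZS minus CRPC went from 1 to 3 (rescaled, without low-total tumors, groups alone), 4 (both), 2 (median-centered) and 0 (5 TPM filter). The relapse step difference went from 1 to 0 with no filter and at 5 TPM, where KRT14 was not tested. Rescaling together with leaving out low-total tumors was chosen after seeing the data. The cause of these changes was not tested.

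Signs changed as follows. Rescaled: CRPC minus POST-CX of CDH1 -0.14, KRT7 -0.13 and KRT8 -0.095, and KRT7 in the relapse step difference 0.096. Median-centered: KRT7 in CRPC minus PRE-CX -0.028 and CRPC minus POST-CX -0.16, KRT14 in ENZS minus PRE-CX -0.099, KRT18 in ENZS minus CRPC -0.089, KRT7 in ENZR minus ENZS 0.014 and in the relapse step difference 0.18. Pseudocount 0.1: VIM in POST-CX minus PRE-CX -0.0015, KRT14 in ENZS minus PRE-CX -0.065, KRT7 in CRPC minus POST-CX -0.10 and KRT19 in ENZR minus ENZS -0.058. Without low-total tumors: VIM in POST-CX minus PRE-CX -0.012, CDH1 in CRPC minus POST-CX -0.0028, and r of KRT7 and KRT19 in POST-CX 0.037. With both: CDH1 -0.11 and KRT8 -0.11 in CRPC minus POST-CX, and KRT8 in the relapse step difference 0.0028. No paired analysis was possible because no mouse number is shared between groups.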
